A study of Mus musculus with 6 samples.

Results

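Hox genes encode homeodomain transcription factors that lie side by side in 4 clusters of the mouse genome. The members here were the protein-coding genes with a symbol of Hoxa, Hoxb, Hoxc or Hoxd and a number, which gave 39 of the 21887 protein-coding genes placed on chromosomes 1 to 19, X and Y of the mm10 annotation. Hoxa holds 11 of them, Hoxb 10, and Hoxc and Hoxd 9 each. A gene counted as held by a list of ATAC-seq peaks where at least 1 peak overlapped the 1 kb on either side of its annotated start or end. The peaks inside each cluster were also read as a whole, each peak once.

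In vertebrates, Hox genes assign position along the head to tail axis, and their order on the chromosome follows the order in which they are used in time and along the body, a property called collinearity. In embryonic stem cells the clusters are known to be silent and covered by Polycomb repressive complexes, with activating histone marks at many of the same promoters. Retinoic acid opens them from the end with the low numbers, and the insulator protein CTCF divides them into domains.

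Each of the 6 lists came from 1 ATAC-seq sample, in which the Tn5 transposase cuts and tags open DNA. The cells were CGR8 mouse embryonic stem cells, named in the design text as the Cdt1-MD line, and all 3 groups were untreated and shared 1 medium. That medium was serum free, with N2 and B27 supplements, 3 µM CHIR99021 (a GSK3 inhibitor), leukemia inhibitory factor and 1 µM PD184352 (a MEK inhibitor). Each group had 2 replicates, and the group names are mito, LM and eG1-1. The names are not spelled out, but the title of the series speaks of mitotic exit, so they were taken in that order, and the peak names of the LM lists read Telo. The titles and the protocol differ in the number of cells per sample, and nothing says that replicates came from separate cultures, so every spread here may be technical.

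The lists held 20639 to 48396 peaks and no read counts, so the depth is not known, and where no peak is given none was called. The score is the authors' own value per peak, whole numbers from 13 upward in every list, and it serves here to describe, rank and filter peaks. What it is scaled to is not given, so a median over the 6 lists, or 1 minimum score for all lists, may not mean the same in each list. Of 9 genes that mark embryonic stem cells, 2 to 8 were held per list, with Zfp42 in all 6 lists and Esrrb in none. None of the 4 endoderm markers was held by any list, whereas 1 to 4 of 5 fibroblast markers, 1 to 4 of 4 neural markers and 0 to 2 of 3 mesoderm markers were. The peak names carried 1 folder tag for all replicate 1 lists and another for all replicate 2 lists. LM replicate 2 and eG1-1 replicate 1 stood apart in the results below, and the differences in shares, the comparisons by gene and the slopes are given with and without them.

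Promoter sequence was at hand for 22 of the 39 genes, in 24 windows of 250 bases before to 50 bases after an annotated start (RefSeq, GRCm38.p6). For each cluster, the window is shown of the gene with the highest median score among genes with a peak over their window, to show 1 promoter of each cluster that a peak overlapped. The ranking used peaks at the gene ends, not only those over the window: the Hoxd13 window had a peak in 2 lists, fewer than the Hoxd10 and Hoxd1 windows with 3 each. The Hoxa10 window, the only Hoxa window with a peak, had 1, with a score of 15 in LM replicate 1. Hoxc4 was the only Hoxc gene with a window, so it was not ranked against others, and no list held it at a gene end. The Hoxa10 window is chr6:52240805-52241104 on the minus strand, the Hoxb1 window chr11:96365508-96365807 on the plus strand, the Hoxc4 window chr15:103034145-103034444 on the plus strand and the Hoxd13 window chr2:74667975-74668274 on the plus strand. Sequences run 5′ to 3′ in lower case, and capitals mark matches to the motifs given after them.
Hoxa10: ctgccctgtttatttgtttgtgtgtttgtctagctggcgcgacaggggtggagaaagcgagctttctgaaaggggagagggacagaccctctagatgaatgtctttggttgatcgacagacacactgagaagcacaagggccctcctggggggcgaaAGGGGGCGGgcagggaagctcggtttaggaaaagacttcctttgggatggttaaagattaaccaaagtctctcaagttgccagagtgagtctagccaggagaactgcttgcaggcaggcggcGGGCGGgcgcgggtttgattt
Hoxb1: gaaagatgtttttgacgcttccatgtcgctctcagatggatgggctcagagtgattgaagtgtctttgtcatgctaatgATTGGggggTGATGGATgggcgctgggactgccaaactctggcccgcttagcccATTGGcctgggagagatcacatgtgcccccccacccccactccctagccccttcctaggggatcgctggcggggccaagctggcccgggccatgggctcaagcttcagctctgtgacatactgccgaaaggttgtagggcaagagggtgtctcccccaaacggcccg
Hoxc4: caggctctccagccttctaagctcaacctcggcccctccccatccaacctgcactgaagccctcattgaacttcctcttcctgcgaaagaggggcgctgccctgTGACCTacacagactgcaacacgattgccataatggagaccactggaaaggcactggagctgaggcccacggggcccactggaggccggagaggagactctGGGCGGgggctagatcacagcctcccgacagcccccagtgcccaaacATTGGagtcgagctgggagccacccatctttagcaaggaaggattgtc
Hoxd13: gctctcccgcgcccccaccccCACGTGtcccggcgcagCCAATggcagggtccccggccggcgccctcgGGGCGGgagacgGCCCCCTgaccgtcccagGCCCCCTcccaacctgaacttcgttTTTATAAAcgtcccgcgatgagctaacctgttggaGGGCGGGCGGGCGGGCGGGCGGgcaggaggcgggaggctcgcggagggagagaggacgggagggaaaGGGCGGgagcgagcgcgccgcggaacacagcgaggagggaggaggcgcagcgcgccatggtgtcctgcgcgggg

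Motifs were searched on both strands, so that a match on the other strand reads as its reverse complement (ATTGG for CCAAT): the GC box GGGCGG, the CCAAT box CCAAT, the TATA box TATAAA, a CTCF core AGGGGGC, the octamer ATGCAAAT, the E-box CACGTG, the joint Hox and Pbx element TGATNNAT, the retinoic acid receptor hexamer AGGTCA and the CDX element TTTATG. The CTCF core can overlap the GC box, as it does 93 bases before the Hoxa10 start, and matches of the GC box to itself overlap in the Hoxd13 window. In the Hoxb1 window, the promoter of a gene of the hindbrain, a joint Hox and Pbx element lay at -162, counted from the start to its first base, between CCAAT boxes at -171 and -117. In the Hoxc4 window a retinoic acid receptor hexamer lay at -146. The Hoxd13 window was rich in GC boxes, with 7 matches, and held a TATA box match at -124 and CTCF core matches at -169 and -151.

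Across the 24 Hox windows, the CCAAT box was found in 15 windows (62.5%), against 38.2% of the 21263 windows of all protein-coding genes. The retinoic acid receptor hexamer was found in 7 Hox windows (29.2%, against 14.7% of all windows), the E-box in 5 (20.8%, against 7.84%) and the CDX element in 5 (20.8%, against 9.71%). The joint Hox and Pbx element was found in 4 Hox windows (16.7%, against 7.45%) and the TATA box in 4 (16.7%, against 12.6%). The GC box was found in 10 Hox windows (41.7%, against 46.2%), the CTCF core in 2 (8.33%, against 12.9%) and the octamer in none (against 1.66%). These shares describe letters in a short window and were not tested. The median GC content of the Hox windows was 57.7%, against 56.3% over all windows, and the median ratio of observed to expected CpG was 0.626, against 0.567. A peak overlapped 10 of the 24 Hox windows (41.7%) in at least 1 list, against a background of 51.9%, and none of the 24 in all 6 lists, against 4723 of the 21263. Most of the Hox windows belonged to Hoxa and Hoxd genes, and only Hoxc4 stood for the Hoxc cluster. Hoxc13, the only Hox gene held at a gene end by all 6 lists, had no window, so these counts leave it out. The 10 Hox windows with a peak had a median GC content of 59.8%, and the 14 without had 55.3%, whereas the median CpG ratio was 0.583 with a peak and 0.820 without.

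The first question was how many Hox genes each list held at a gene end. The mito lists held 11 (28.2%) and 15 (38.5%) of the 39 genes, the LM lists held 13 (33.3%) and 3 (7.69%), and the eG1-1 lists held 5 (12.8%) and 12 (30.8%), in the order of the replicates. The background over all protein-coding genes was 46.6% and 50.4% in the mito lists, 47.4% and 35.7% in the LM lists, and 42.1% and 52.7% in the eG1-1 lists. The share of Hox genes was therefore below the background in each of the 6 lists, at 0.606, 0.763, 0.703, 0.215, 0.305 and 0.584 of it. LM replicate 2 and eG1-1 replicate 1 held the fewest Hox genes, and they also held the smallest shares of all genes. In a bulk sample, fewer cells with an open site and less opening per cell cannot be told apart.

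Forkhead genes, another family of developmental transcription factors, were held more often than Hox genes in every list, with 20, 25, 22, 8, 15 and 20 of 44 genes. The protein-coding genes that flank the clusters, 3 on either side of each, were held more often still, with 21, 20, 21, 16, 18 and 21 of 24. Among these neighbours, Calcoco2 and Ttll6 had the same score as each other in every list, and so did Cbx5 and Hnrnpa1. A single peak may therefore count for 2 neighbours. Among Hox genes, Forkhead genes, these neighbours and all genes, the Hox genes had the lowest share and the neighbours the highest in every list, and no test was made of this difference. Other sets were lower than the Hox genes in some lists. No endoderm marker was held at all, ParaHox and related homeobox genes had 26.7% in mito replicate 1, where Hox genes had 28.2%, and retinoic acid pathway genes had 28.6% in mito replicate 2 and in LM replicate 1, where Hox genes had 38.5% and 33.3%.

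**Figure D1:**
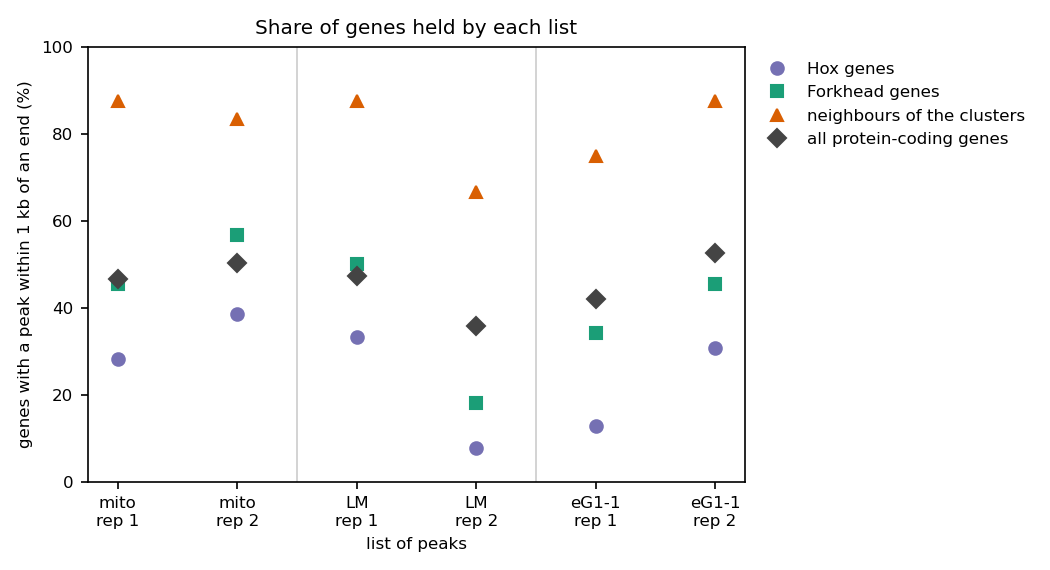
Share of genes with a peak within 1 kb of a gene end (y axis, percent) in each of the 6 lists (x axis), for the 39 Hox genes, 44 Forkhead genes, 24 neighbours of the clusters and all 21887 protein-coding genes; each point is 1 list. The Hox points lie between 7.69% and 38.5% and are the lowest of the 4 sets in every list.

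Between groups, the shares of Hox genes differed by less than the larger SD of the groups compared. The mito mean was 33.3 ± 7.25%, the LM mean 20.5 ± 18.1% and the eG1-1 mean 21.8 ± 12.7% (SD, n = 2 lists each). LM minus mito was -12.8 percentage points for Hox genes and -6.93 for all genes. The difference eG1-1 minus LM was 1.28 points for Hox genes and 5.83 for all genes, and eG1-1 minus mito was -11.5 points for Hox genes and -1.10 for all genes. For Forkhead genes, LM minus mito was -17.0 points, eG1-1 minus LM 5.68 and eG1-1 minus mito -11.4, and for the 9 embryonic stem cell markers the 3 differences were -27.8, 0 and -27.8, so values below those of mito were not limited to Hox genes. The direction of eG1-1 minus LM was not stable: it was -3.85 points at a 500 bp window, -1.28 at 2 kb, -2.56 with the peak centre inside the window and -8.97 with lists of equal length. With lists of equal length LM minus mito was -1.28 points, and among peaks scoring 50 or more it was -3.85. The values of the groups overlapped in each comparison, and with 2 lists against 2 no exact test could pass the threshold, so none was made. Without LM replicate 2, LM minus mito was 0 and eG1-1 minus LM was -11.5 points. Without eG1-1 replicate 1, eG1-1 minus mito was -2.56 points and eG1-1 minus LM was 10.3 points. Among replicate 1 lists alone, which share a folder tag, mito, LM and eG1-1 held 11, 13 and 5 Hox genes, and among replicate 2 lists they held 15, 3 and 12, so the order of the groups was not the same in the 2 sets of lists.

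By gene, 15 of the 39 Hox genes (38.5%) had a peak at an end in no list, against a background of 38.6%. Among them were Hoxa2, Hoxa5, Hoxa6, Hoxa11, Hoxa13, Hoxb3, Hoxb6, Hoxb7, Hoxb8, Hoxc4, Hoxc8, Hoxd4, Hoxd10 and Hoxd12. They include genes of the hindbrain and face (Hoxa2), of the lung (Hoxa5) and of the limbs and urogenital tract (Hoxa11, Hoxa13). A further 8 genes (20.5%) were held by exactly 1 list, against a background of 6.48%. At the other end, 1 Hox gene (2.56%), Hoxc13, was held by all 6 lists, against a background of 27.8%. Hox genes were thus absent from every list about as often as other genes, while far fewer of them were held throughout. LM replicate 2 held 3 Hox genes, so no more than 3 could be held by all 6 lists. Both mito lists held 6 Hox genes (15.4%, against 43.1% of all genes), namely Hoxa4, Hoxc5, Hoxc9, Hoxc10, Hoxc11 and Hoxc13. Both LM lists held 1 (2.56%, against 32.8%), again Hoxc13, a count that could not pass the 3 Hox genes of LM replicate 2. Both eG1-1 lists held 4 (10.3%, against 39.4%), namely Hoxa9, Hoxc6, Hoxc13 and Hoxd13. In total 65 peaks over the 6 lists lay at a Hox gene end, and none of them was shared by more than 1 Hox gene.

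**Figure D2:**
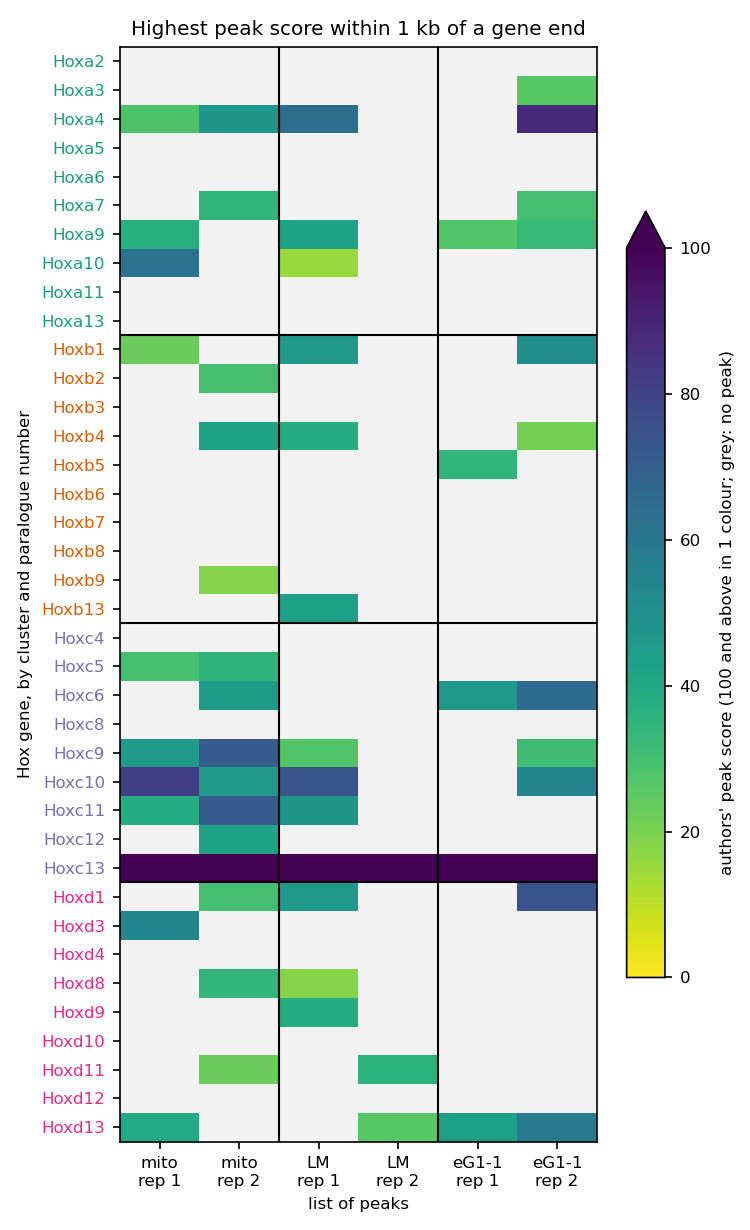
Highest peak score within 1 kb of either end of 38 Hox genes (rows, by cluster and paralogue number) in each of the 6 lists (columns); colour gives the authors' score and grey means no peak. Hoxc13 is the only row filled in all 6 lists, 14 rows are empty, and LM replicate 2 has 3 filled cells.

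Hoxc13, a regulator of hair and nail keratins, had scores of 155 and 241 in mito, while LM had 216 and 182 and eG1-1 had 139 and 216. These were the highest scores of any Hox gene in all 6 lists. The peak lay just upstream of the gene, in a region of 854 bp at chr15:102920163-102921016, and its centre was 288 to 544 bp before the annotated start. The region ended 115 bp short of the lower end of the Hoxc cluster, so it was not among the peaks inside the clusters. A second, weaker peak just inside the gene was called in mito replicate 1 (45) and LM replicate 1 (51) only.

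Hoxc10, a gene of lumbar motor neurons, had scores of 82 and 46 in mito, 74 and no peak in LM, and no peak and 55 in eG1-1. Hoxc9, a gene of thoracic motor neurons, had 46 and 71 in mito, 27 and no peak in LM, and no peak and 31 in eG1-1. Both genes had their peak at the 5′ end, and both were missing from LM replicate 2 and eG1-1 replicate 1 while present in the other 4 lists. Hoxc12, which neighbours Hoxc13, was held by mito replicate 2 (42) alone, although the same region just past the 1 kb window had peaks in LM replicate 2 (26) and eG1-1 replicate 2 (43). Hoxc8, a gene of thoracic vertebrae and motor neurons, had no peak at either end in any list.

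Among the Hoxa genes, Hoxa4, which patterns cervical vertebrae, had scores of 28 and 47 in mito, 64 and no peak in LM, and no peak and 88 in eG1-1, at its 5′ end. Hoxa9, known for its role in blood progenitors and leukaemia, had 37 and no peak in mito, 42 and no peak in LM, and 27 and 33 in eG1-1. The nearest Hoxa9 peak, that of mito replicate 1, lay 712 bp beyond the 3′ end of the gene. The peaks of the other lists lay farther off, and none lay at the 5′ end. Hoxa7, a gene of thoracic vertebrae, was held by the second replicates of mito (34) and eG1-1 (30). Hoxa10, needed in the uterus and the lumbar spine, was held by the first replicates of mito (62) and LM (15). Hoxa3, needed for the thymus and parathyroid, was held by eG1-1 replicate 2 (26) alone. The Hoxa10 score of 15 was close to the lowest score of the list.

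Among the Hoxb genes, Hoxb1, a hindbrain gene that responds to retinoic acid, had 23 and no peak in mito, 46 and no peak in LM, and no peak and 50 in eG1-1. Hoxb4, known for expanding blood stem cells, had no peak and 42 in mito, 38 and no peak in LM, and no peak and 21 in eG1-1. Each was held by 1 list of every group. Hoxb2, a hindbrain gene, was held by mito replicate 2 (30), and Hoxb9, which patterns ribs, by mito replicate 2 (18). Hoxb5, which positions the shoulder girdle, was held by eG1-1 replicate 1 (34), and Hoxb13, a gene of the prostate and tail, by LM replicate 1 (43). No Hoxb gene was held by both lists of any group.

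Among the Hoxd genes, Hoxd13, which patterns digits, had 39 and no peak in mito, no peak and 26 in LM, and 43 and 59 in eG1-1. Its peaks lay upstream, with centres 461 to 682 bp before the start, and touched the promoter window shown above in mito replicate 1 and eG1-1 replicate 2. Hoxd1, a gene of pain-sensing neurons, had no peak and 30 in mito, 46 and no peak in LM, and no peak and 74 in eG1-1. These 2 genes at opposite ends of the cluster were the Hoxd genes held most often. Hoxd11, a gene of the forearm, was held by mito replicate 2 (23) and LM replicate 2 (36), and Hoxd8 by mito replicate 2 (34) and LM replicate 1 (18). Hoxd3, which patterns the neck vertebrae, was held by mito replicate 1 (54), and Hoxd9, a limb gene, by LM replicate 1 (38).

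The next question was whether any Hox gene was held by both lists of 1 group and neither list of another. For eG1-1 and mito, no Hox gene was in both eG1-1 lists but no mito list, against a background of 1.61%, and 2 (5.13%) were in both mito lists but no eG1-1 list, against 1.97%. For LM and mito, none was in both LM lists but no mito list, against 0.356%, and 1 (2.56%) was in both mito lists but no LM list, against 2.17%. For eG1-1 and LM, 1 (2.56%) was in both eG1-1 lists but no LM list, against 2.35%, and none was in both LM lists but no eG1-1 list, against 0.48%. These counts of 0 to 2 of 39 genes stand near the backgrounds. Each comparison's count, both directions together, was higher when 1 of its own libraries was left out. With 1 list left in a group the rule asks less, so the count can only stay or rise. No share over all genes is at hand under this looser rule, so the counts below are not read as a result about Hox genes. For eG1-1 and mito it was 3 or 6 when eG1-1 replicate 1 or 2 was dropped, and 9 or 5 when mito replicate 1 or 2 was. For LM and mito it was 5 or 3 when LM replicate 1 or 2 was dropped, and 6 or 2 when mito replicate 1 or 2 was. For eG1-1 and LM it was 3 or 2 when eG1-1 replicate 1 or 2 was dropped, and 3 or 7 when LM replicate 1 or 2 was.

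The genes behind those counts all lay in the Hoxc cluster. Hoxc11, a posterior gene with a role in kidney and hindlimb, had scores of 38 and 71 in mito, 47 and no peak in LM, and no peak in either eG1-1 list. Its peaks lay in 2 places, the 5′ end in mito replicate 2 and LM replicate 1, and the 3′ end (chr15:102955819-102956341) in both mito lists with 38 and 46. Hoxc5, a cervical and thoracic gene, had 30 and 35 in mito and no peak in the LM and eG1-1 lists at the 1 kb window. Its main region, chr15:103014988-103015999, crossed the edge of that window, and the region itself had scores of 33 and 35 in mito, 39 and no peak in LM, and 25 and 72 in eG1-1. Hoxc6, a thoracic gene, had no peak and 45 in mito, no peak in LM, and 46 and 65 in eG1-1. Its region, chr15:102998993-103000149, crossed the window edge as well, and had 31 and 45 in mito, 22 and no peak in LM, and 46 and 65 in eG1-1. By region, then, Hoxc5 and Hoxc6 had peaks in the same 5 lists, all but LM replicate 2, and of the 3 genes Hoxc11 alone had no peak in eG1-1.

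By cluster, Hoxc had the largest share of its genes held in every list but LM replicate 2, where Hoxd had the largest. Hoxc had 5 and 7 of 9 genes in mito, with 4 and 1 for LM and 2 and 4 for eG1-1. Hoxa had 3 and 2 of 11 genes in mito, while LM had 3 and 0 and eG1-1 had 1 and 4. Hoxb had 1 and 3 of 10 genes in mito, with 3 and 0 for LM and 1 and 2 for eG1-1. Hoxd had 2 and 3 of 9 genes in mito, while LM had 3 and 2 and eG1-1 had 1 and 2. The count for Hoxd, 1 to 3 genes, varied least between lists. By position along the cluster, the 16 posterior genes (paralogues 9 to 13) were held 7 and 7 times in mito, 8 and 3 times in LM, and 3 and 5 times in eG1-1. The 12 anterior genes (paralogues 1 to 4) were held 3 and 4 times in mito, 4 and 0 times in LM, and 0 and 5 times in eG1-1. The 11 central genes (paralogues 5 to 8) were held 1 and 4 times in mito, 1 and 0 times in LM, and 2 and 2 times in eG1-1. No anterior gene was held in LM replicate 2 or eG1-1 replicate 1, whereas every list held posterior genes. LM replicate 2 held 3 Hox genes in all, however, and no central gene either. In eG1-1 replicate 2 the anterior share (41.7%) was above the posterior one (31.25%). Away from gene ends, LM replicate 2 and eG1-1 replicate 1 had a peak inside the anterior gene Hoxa3, with scores of 91 and 92.

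The peaks inside the clusters give a second view that does not depend on gene ends. The clusters span 106 kb (Hoxa, chr6:52155367-52260880), 174 kb (Hoxb, chr11:96194316-96368254), 116 kb (Hoxc, chr15:102921131-103036856) and 96.9 kb (Hoxd, chr2:74668225-74765142), and hold no other protein-coding gene. They held 24 and 32 peaks in mito, with 27 and 5 for LM and 13 and 28 for eG1-1. Per 10000 peaks of the list this was 9.76 (Wilson 95% interval 6.56 to 14.5) and 10.5 (7.45 to 14.8) in mito, 11.3 (7.78 to 16.5) and 2.42 (1.03 to 5.67) in LM, and 4.05 (2.37 to 6.93) and 5.79 (4.00 to 8.36) in eG1-1. These intervals cover counting error only. Relative to list length, both eG1-1 lists and LM replicate 2 lay below both mito lists and LM replicate 1.

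Over the order mito, LM, eG1-1, the number of cluster peaks had a least-squares slope of -3.75 per step (exact two-sided permutation test, p = 0.556; means of mito, LM and eG1-1 28 ± 5.66, 16 ± 15.6 and 20.5 ± 10.6, SD, n = 2). The number per 10000 peaks gave a least-squares slope of -2.61 per step (exact two-sided permutation test, p = 0.222; means of mito, LM and eG1-1 10.1 ± 0.533, 6.87 ± 6.29 and 4.92 ± 1.23, SD, n = 2). Adjusted over these 2 slopes by the Benjamini-Hochberg method, the exact p-values were 0.556 and 0.444. Neither passed the threshold, and the smallest p that 6 lists allow is 0.0222. Without eG1-1 replicate 1 the slopes were -1.71 peaks and -2.33 per 10000 peaks per step (exact permutation p = 0.833 and 0.367). Without LM replicate 2 the slopes were -3.75 and -2.61 (exact permutation p = 0.467 and 0.2), and the LM values were those of replicate 1, 27 peaks and 11.3 per 10000. The LM lists carry no weight in a slope over 3 evenly spaced groups of equal size.

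**Figure D3:**
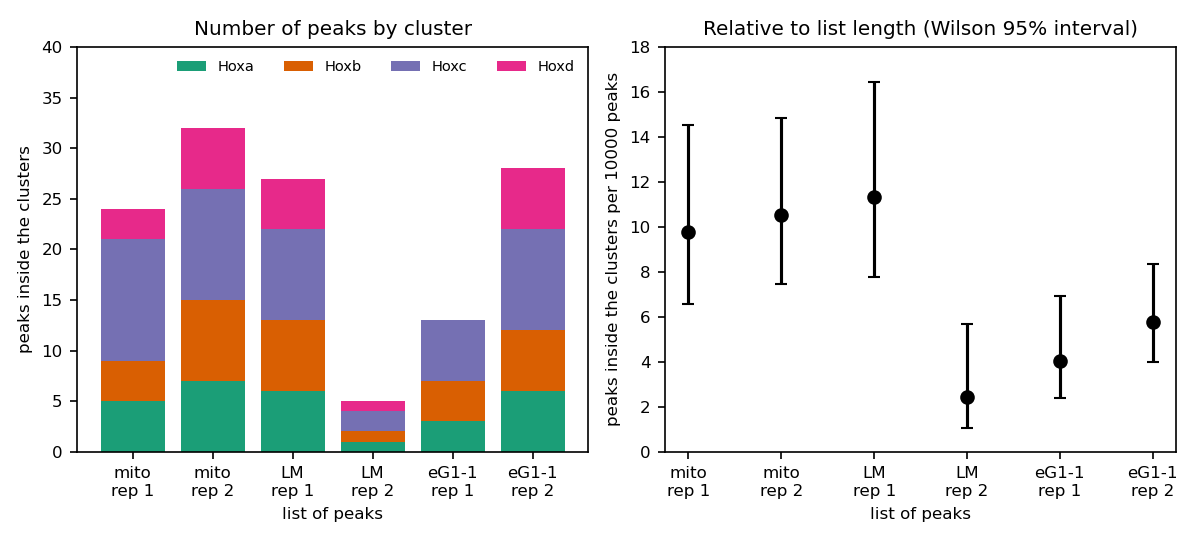
Left, number of peaks inside the 4 Hox clusters in each list, stacked by cluster; right, the same total per 10000 peaks of the list with its Wilson 95% interval, which covers counting error only. LM replicate 2 has the fewest peaks (5), and the eG1-1 lists lie at 4.05 and 5.79 per 10000 against 9.76 and 10.5 in mito.

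Although few gene ends were held, peaks were denser inside the clusters than in gene bodies in most lists. The clusters held 4.88 and 6.50 peaks per 100 kb in mito, while LM had 5.49 and 1.02 and eG1-1 had 2.64 and 5.69. The bodies of all protein-coding genes held 1.50 and 1.82 peaks per 100 kb in mito, with 1.51 and 1.20 for LM and 1.84 and 2.78 for eG1-1. The density in the clusters was higher in all lists but LM replicate 2. The clusters pack many genes into short spans, and neither density was adjusted for the number of gene ends. The comparison therefore does not show that the clusters were rich in peaks for their gene content. The peaks in the clusters were weak ones, however: their median scores were 36.5, 41.5, 42, 36, 40 and 49.5 in the 6 lists, against list medians of 55, 59, 53, 48, 49 and 57. The median cluster peak stood at percentile 25.7 to 43.2 of its own list. Cluster peaks were also narrower, with median widths of 237 to 443 bp, against 336 to 503 bp over all peaks of the lists.

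The Hoxc cluster held the most peaks in every list, namely 12 and 11 in mito, with 9 and 2 for LM and 6 and 10 for eG1-1. The Hoxb cluster, the longest, held 4 and 8 in mito, while LM had 7 and 1 and eG1-1 had 4 and 6. The Hoxa cluster held 5 and 7 in mito, with 6 and 1 for LM and 3 and 6 for eG1-1. In the Hoxd cluster, eG1-1 replicate 1 held no peak at all, whereas eG1-1 replicate 2 held 6, the mito lists 3 and 6, and the LM lists 5 and 1. The region upstream of Hoxd13, with 43 in eG1-1 replicate 1, ended 193 bp short of the lower end of the cluster and was not counted.

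Merging peaks that overlap by at least 1 bp between lists gave 57 regions inside the clusters, 11 in Hoxa, 16 in Hoxb, 16 in Hoxc and 14 in Hoxd. Of these, 23 lay within 1 kb of a 5′ gene end, 5 near a 3′ end only, 19 elsewhere in a gene body and 10 between genes. Regions in a single list were the largest class, with 28 of the 57 (49.1%), against 42.4% of all 65324 regions. By number of lists, 28, 8, 9, 5, 6 and 1 regions were held by 1, 2, 3, 4, 5 and 6 lists. The 1 region held by all 6 lists is 1.75% of the Hox regions, against 15.5% of all 65324 regions. Replicates shared a smaller part of the Hox regions than of all regions. Of the Hox regions held by at least 1 list of a group, both lists held 14 of 40 (35%) in mito, 2 of 30 (6.67%) in LM and 9 of 32 (28.1%) in eG1-1. LM replicate 2 had 5 cluster peaks, which bounds the LM share and the number of Hox regions held by all 6 lists. Over all regions, both lists held 54.2% (mito), 44.4% (LM) and 44.1% (eG1-1).

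**Figure D4:**
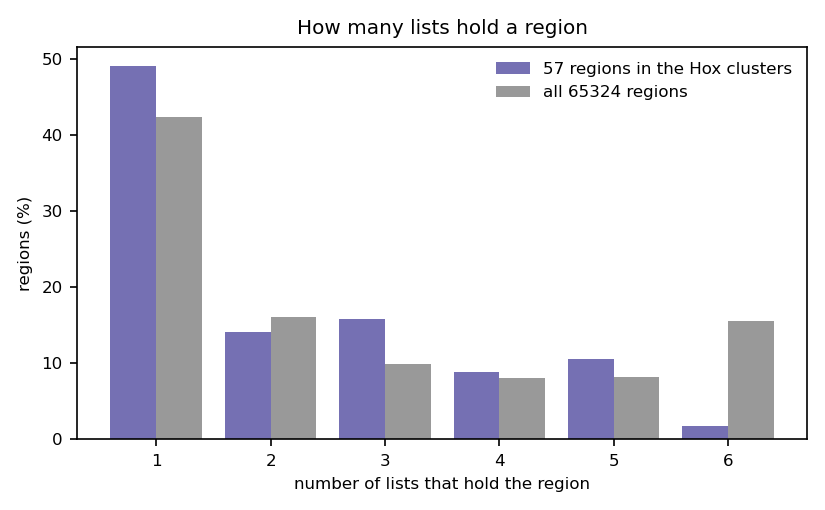
Share of regions (y axis, percent) held by 1 to 6 lists (x axis), for the 57 regions inside the Hox clusters and for all 65324 regions. Regions held by a single list are the largest class in both, and 1.75% of the Hox regions, against 15.5% of all regions, are held by all 6 lists. The 5 cluster peaks of LM replicate 2 bound that last class of Hox regions.

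**Figure D5:**
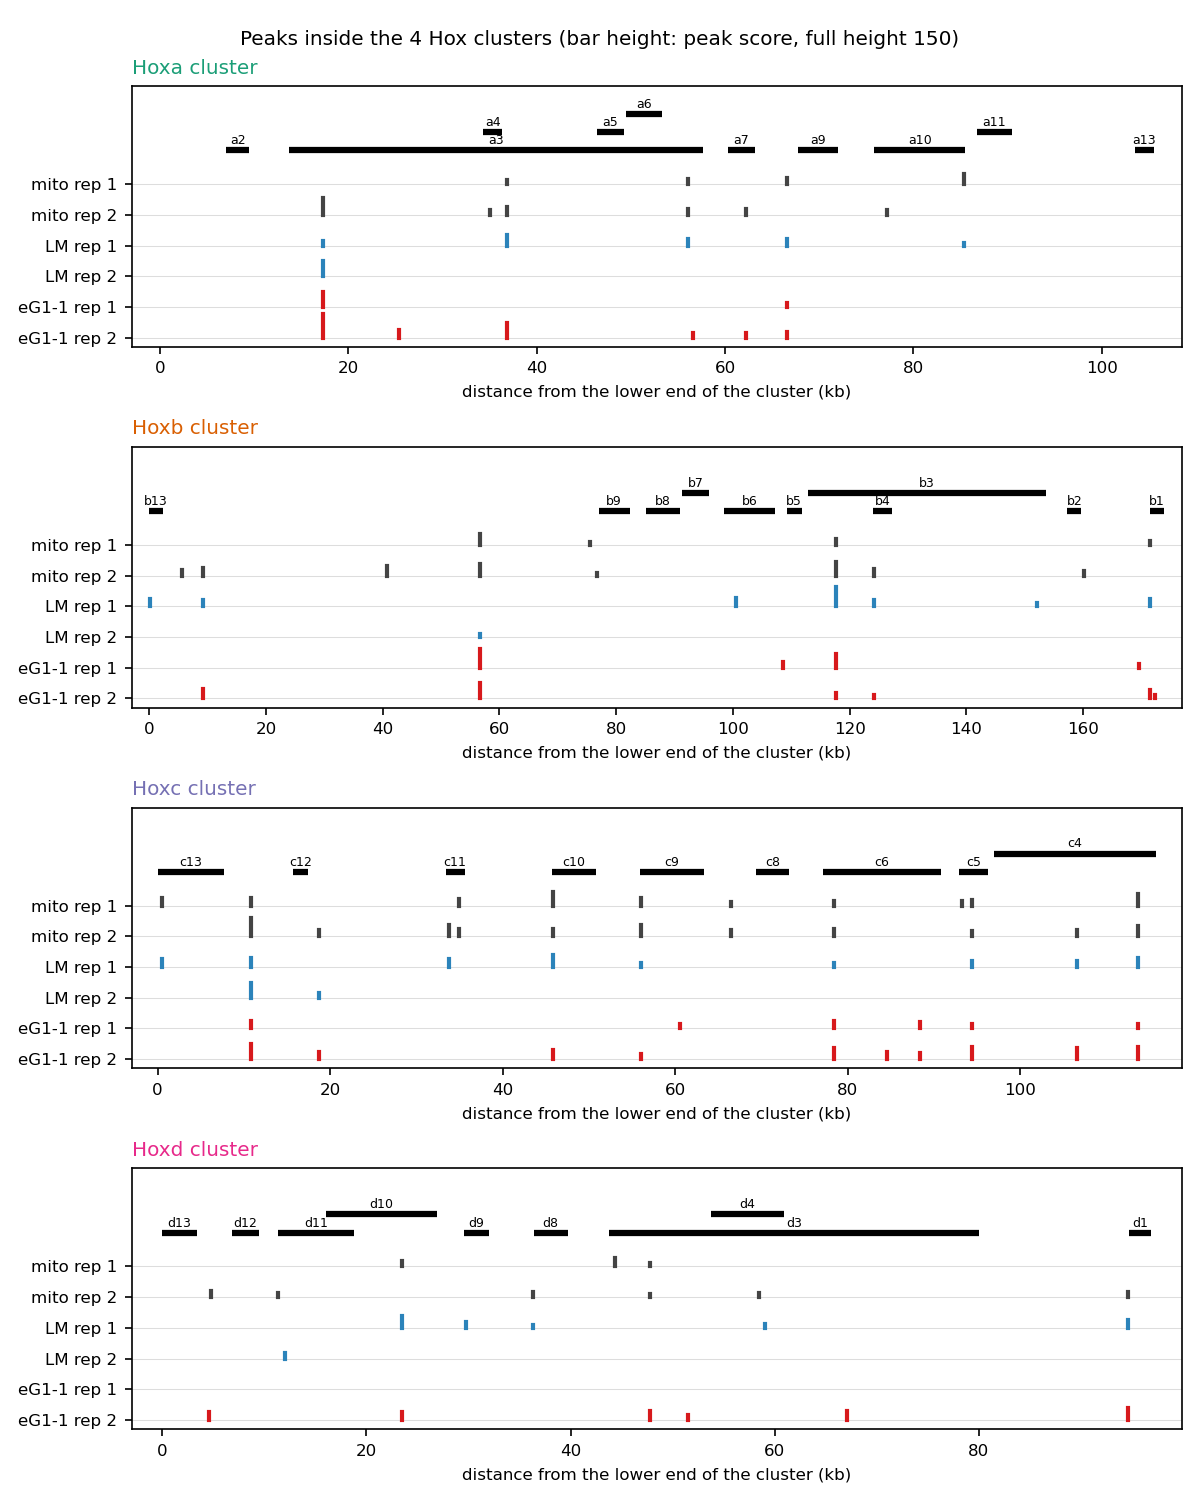
Maps of the 4 Hox clusters with distance from the lower end of each cluster in kb (x axis), 38 genes as black bars and a bar for each of 56 regions at its centre in each list that holds it, whose height is the authors' score (full height 150). Recurrent regions stand in columns, such as the one between Hoxc13 and Hoxc12 that all 6 lists hold, and LM replicate 2 has 5 bars in all.

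The region held by all 6 lists, chr15:102931518-102932473, lay between Hoxc13 and Hoxc12, 2704 bp from Hoxc13. Its scores were 48 and 112 in mito, while LM had 57 and 89 and eG1-1 had 45 and 92. Another Hoxc region, chr15:103034098-103035336, had 72 and 63 in mito, 57 and no peak in LM, and 26 and 77 in eG1-1. It covered the Hoxc4 promoter window shown above, which belongs to an inner start of the gene. Hoxc4, a cervical gene, therefore counts among the genes held by no list although 5 lists had a peak over or beside that inner start. The same holds for Hoxd10, a lumbar and limb gene, whose inner promoter window lay under chr2:74691338-74692119, with 36 and no peak in mito, 75 and no peak in LM, and no peak and 46 in eG1-1.

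Some of the strongest Hox regions lay away from gene ends. In the Hoxa cluster, chr6:52172409-52172984 inside the long Hoxa3 gene had no peak and 102 in mito, with 29 and 91 for LM and 92 and 147 for eG1-1. It was the only Hoxa region held by LM replicate 2, and mito replicate 1 alone lacked it. The 5′ end of Hoxa4 given above was also among the Hoxa regions with the highest median scores.

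In the Hoxb cluster, chr11:96250691-96251263 lay in the long gap between Hoxb13 and Hoxb9, 20067 bp from Hoxb9, and had 67 and 74 in mito, no peak and 19 in LM, and 115 and 97 in eG1-1. A region inside Hoxb3, chr11:96311616-96312179, had 39 and 86 in mito, 121 and no peak in LM, and 84 and 34 in eG1-1. Both were held by 5 lists, and each was missing from a different LM list. Hoxb3, a hindbrain gene, had no peak at its annotated ends. The third Hoxb region by median score, chr11:96203120-96203911, lay 6510 bp from Hoxb13 and was held by mito replicate 2 (46), LM replicate 1 (36) and eG1-1 replicate 2 (56). Upstream of the cluster, 3650 bp before Hoxb13, a region at chr11:96190001-96190666 was held by all 6 lists, with 104 and 78 in mito, while LM had 96 and 65 and eG1-1 had 51 and 174.

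By region, 1 of the 57 Hox regions (1.75%, against 8.07% of all regions) was in both eG1-1 lists but no mito list, and 3 (5.26%, against 1.85%) were in both mito lists but no eG1-1 list. The 1 was chr15:103009315-103009730 inside Hoxc6, with 40 and 37 in eG1-1 and no peak in the other 4 lists. The 3 were the Hoxc11 3′ end given above, chr15:102987342-102987799 between Hoxc9 and Hoxc8 with 25 and 41 in mito and no peak elsewhere, and chr6:52211181-52211730 in Hoxa3 with 30 and 35 in mito and 40 in LM replicate 1. In the other comparisons, 3 regions (5.26%, against 3.56%) were in both mito lists but no LM list. The third of them, beside the Hoxc11 and Hoxc9 to Hoxc8 regions, was chr2:74715877-74716226 in Hoxd3, with 20 and 22 in mito, no peak in LM, and no peak and 54 in eG1-1. The Hoxc6 region named first was also the 1 region (1.75%, against 9.38%) held by both eG1-1 lists and neither LM list. No Hox region was held by both LM lists and neither mito list (0.905% of all regions) or neither eG1-1 list (0.459%).

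List length moves these counts. When each list was limited to its 20639 highest scores, the mito lists held 8 and 6 Hox genes, the LM lists 10 and 3 and those of eG1-1 3 and 3, against 43.7% and 43.5%, 44.9% and 35.7%, and 34.5% and 35.8% of all genes. Here both eG1-1 lists lay below both mito lists, for Hox genes and for all genes alike. The clusters then held 15 and 14 peaks in mito, with 21 and 5 for LM and 7 and 8 for eG1-1. Among peaks with a score of at least 50, the order was different, with 4 and 3 Hox genes in mito, while LM had 3 and 1 and eG1-1 had 1 and 7. Over all genes the shares were then 35.4% and 41.5% for the mito lists. They were 35.8% and 24.1% for the LM lists. For the eG1-1 lists they were 29.6% and 41.7%, so LM replicate 2 and eG1-1 replicate 1 were lowest and eG1-1 replicate 2 highest for all genes too. Hoxc13 was held by all 6 lists under each of these settings.

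Genes that work with or on the Hox genes were read in the same way. The background for these sets is again the share of all protein-coding genes, 35.7% to 52.7% by list. The TALE homeodomain proteins bind DNA together with Hox proteins, and the lists held 6 and 6 of these 9 genes in mito, with 7 and 6 for LM and 6 and 7 for eG1-1. Pbx3, Pbx4, Meis1 and Meis2 were each held by all 6 lists. Of 16 genes for Polycomb and trithorax regulators and Ctcf, the mito lists held 12 and 10, the LM lists 12 and 7 and those of eG1-1 8 and 14. Kdm6a, which encodes a demethylase that removes the Polycomb mark, had 129 and 77 in mito and no peak in the other 4 lists. Rnf2, a core subunit of Polycomb repressive complex 1, had no peak in mito, 78 and no peak in LM, and 36 and 93 in eG1-1.

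Of 14 retinoic acid pathway genes, the mito lists held 4 and 4, the LM lists 4 and 3 and those of eG1-1 5 and 7. Rara, a retinoic acid receptor gene, had no peak in mito or LM and had 40 and 35 in eG1-1. Crabp2, which encodes a retinoic acid carrier, had no peak in mito, no peak and 46 in LM, and 64 and 41 in eG1-1. Of 15 ParaHox and related homeobox genes outside the clusters, such as Cdx and Evx genes, the mito lists held 4 and 6, the LM lists 8 and 3 and those of eG1-1 3 and 7. Evx1, next to the Hoxa cluster, had 106 in LM replicate 1 and 103 in eG1-1 replicate 2 only, and Evx2, next to the Hoxd cluster, had no peak in any list. Kdm6a, Rnf2, Rara and Crabp2 are named because both lists of 1 group and neither list of another held them. The other genes of these lists were named after their values were seen. Each such pattern of Kdm6a, Rnf2, Rara and Crabp2 was found in 1.61% to 2.35% of all protein-coding genes. Such patterns were not limited to these sets: Forkhead genes such as Foxk1 and Foxp2 and the markers Tdgf1 and Nes had them too.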

How the data were processed

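ATAC-seq was measured in 6 samples, each with 1 deposited peak list of 5 columns. Per the submitters' processing notes, the tools were MACS2 2.2.4, STAR 2.7.0e, bedtools, SAMtools 1.10, Picard and deepTools 3.5.1, on mm10 or GRCm38. The sources used here do not give their roles, any shift for the Tn5 offset or the calling threshold. The score is a value per peak that the authors deposited, and its scaling is not given. Peaks were called per sample, per the peak names in the deposited lists.

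Groups came from the sample titles. Gene ends came from the RefSeq table of GRCm38.p6, and the strand of a cluster was taken from those of its genes with a promoter window. Windows, merging and shares were computed with Python 3.11.15, pandas 2.3.3 and NumPy 2.4.6, and tested on simulated lists. No test was made of a share of members. The slope over mito, LM and eG1-1 coded in order was tested by an exact two-sided permutation of the 90 assignments, with 0.05 as the threshold. Named were the 3 genes of each cluster with the highest median score, genes held by 1 list, and genes and regions held by both lists of 1 group and neither of another, plus the 3 regions of each cluster with the highest median score. 1 Hox gene with its region and 1 cofactor gene enter the counts but are not reported here by name. The members and lists were chosen with earlier results of these data known. Alternatives were the window size, the peak centre in place of any overlap, a score of at least 50, equal list length, other cluster limits, a replicate block and leaving out each list.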

Additional observations from a re-analysis of the deposited data

How the results depend on the processing

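Hoxc13 stayed the only Hox gene held by all 6 lists, with a count of 1 under every alternative run. The slope of cluster peaks turned to 0.75 (exact permutation p = 0.756) at a score of at least 50, and eG1-1 minus mito was then 1.28 percentage points. The difference eG1-1 minus LM turned negative, from -8.97 to -1.28 points, with another window, the peak centre or equal list length. The count of Hox genes held by both lists of 1 group and neither of the other was, for LM and mito, 0 at a 500 bp window, with the peak centre and at a score of at least 50. For eG1-1 and LM it was 0 under those settings, at a 2 kb window and at equal list length. For eG1-1 and mito it was 1 at a 500 bp window and with the peak centre, and 0 at a score of at least 50. At a 2 kb window and at equal list length it rose to 3, from 2 in the main setting. Why these values moved was not tested, beyond the fewer peaks that a higher score leaves. For the counts by gene no share over all genes is at hand under these settings, so they are not read as a result about Hox genes. Leaving out 1 list at a time gave -25.6 to 0 points for LM minus mito, -11.5 to 14.1 for eG1-1 minus LM, and -20.5 to -2.56 for eG1-1 minus mito. The counts then ran from 1 to 6, 1 to 7 and 2 to 9 genes, the slope of cluster peaks from -8.14 to -0.857, and that per 10000 peaks from -3.07 to -2.33. The deviations of same-numbered lists correlated at 0.00727 (mito and LM), 0.0986 (mito and eG1-1) and -0.0763 (LM and eG1-1), so the numbers were not taken to pair the samples. With the replicate block, the slopes of -3.75 and -2.61 had exact permutation p = 0.611 and 0.278, where 0.0556 is the smallest possible, and no call differed. Read depth is unknown, so a missing peak sets no limit on openness.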
